A study of Mus musculus with 42 samples.

Results

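Follistatin and the activin system were followed in mouse hippocampal neurons through 10 genes. These were the secreted antagonist Fst (follistatin), its relatives Fstl1, Fstl4 and Fstl5, the ligand subunits Inhba and Inhbb, the receptors Acvr1b, Acvr2a and Acvr2b, and the decoy receptor Bambi. They were taken by symbol from a table of 55471 genes, 17609 of which had enough counts to be tested, and all 10 were among those tested. The genes were picked with results of these same libraries in view, so their differences after BDNF are given as a description, without a p-value. Where a threshold call after BDNF is named for them, it too is a description.

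Neurons came from NMRI mouse embryos at embryonic day 16 and were used after 6 to 7 days in culture. Controls (n = 6) received vehicle, and a second group (n = 6) received brain-derived neurotrophic factor (BDNF) at 50 ng/ml for 20 min and was then washed. The other two groups were exposed for 24 h to small extracellular vesicles (EVs), either from vehicle-treated cortical neurons (control EV, n = 3) or from cortical neurons given the same BDNF pulse (BDNF EV, n = 3). Plating medium contained horse serum and was replaced within hours by a medium with B27 supplement in all cultures. The interval between the BDNF pulse and the harvest of the hippocampal cells is not given in the sources used here. Each library carries a set number and a batch letter, whose meaning the labels do not give. Batch a holds set 1, batch b holds sets 2 and 3, batch c holds sets 4 and 5, and batch d holds set 6. EV libraries exist for sets 1 to 3 only.

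Activins are dimers of inhibin beta subunits, encoded by Inhba and Inhbb among others, and belong to the TGF-beta family. They bind the type II receptors (Acvr2a, Acvr2b), which recruit and activate the type I receptor Acvr1b, and the signal passes through SMAD2 and SMAD3 to the nucleus. Follistatin binds activins outside the cell and blocks their access to the receptors, while Bambi resembles a type I receptor that lacks the kinase. In hippocampal neurons Inhba is known as a gene induced by synaptic activity, and activin A is known for effects on dendritic spines and on neuronal survival.

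The promoters of Inhba and Fstl5 are shown as those of a gene that was higher and one that was lower after BDNF, and that of Fstl4 because it holds the cyclic AMP response element (CRE), the motif bound by CREB, a transcription factor that BDNF signalling is known to activate. The RefSeq windows (GRCm38.p6, 250 bases before to 50 bases after a listed gene start) lie on the plus strand at chr13:16011601-16011900 for Inhba, at chr3:76074311-76074610 for the first listed start of Fstl5 and at chr11:52764456-52764755 for Fstl4. Capitals mark matches, on either strand, to the full CRE (TGACGTCA), the short CRE (TGACG or CGTCA), the AP-1 motif (TGANTCA), the SMAD box (GTCTAGAC), the short SMAD motif (GTCTG or CAGAC), the TATA box (TATAAA or TTTATA) and the E-box (CACGTG).
Inhba: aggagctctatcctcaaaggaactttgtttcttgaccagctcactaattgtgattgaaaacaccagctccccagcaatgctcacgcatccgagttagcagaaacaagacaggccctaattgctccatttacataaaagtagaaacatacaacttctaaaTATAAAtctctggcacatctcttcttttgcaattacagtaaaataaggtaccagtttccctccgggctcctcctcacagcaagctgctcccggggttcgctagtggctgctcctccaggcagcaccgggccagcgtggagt
Fstl5: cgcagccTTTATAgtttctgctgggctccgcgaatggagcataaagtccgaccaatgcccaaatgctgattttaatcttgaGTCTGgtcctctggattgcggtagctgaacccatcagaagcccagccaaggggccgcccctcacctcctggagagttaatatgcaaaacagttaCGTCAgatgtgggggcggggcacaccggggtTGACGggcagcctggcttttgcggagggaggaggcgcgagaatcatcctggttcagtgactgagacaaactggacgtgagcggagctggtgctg
Fstl4: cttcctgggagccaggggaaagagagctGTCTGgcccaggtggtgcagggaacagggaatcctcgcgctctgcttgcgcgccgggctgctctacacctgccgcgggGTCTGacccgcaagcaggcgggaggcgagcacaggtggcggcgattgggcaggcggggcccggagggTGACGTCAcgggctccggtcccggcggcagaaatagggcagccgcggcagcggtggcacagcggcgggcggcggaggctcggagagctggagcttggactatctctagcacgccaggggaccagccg
The Fstl4 window held a full CRE at position -77 from the start, a motif present in 588 of 32851 promoters of the same length (1.79%), and its short CRE matches overlap that motif. The Fstl5 window held 2 short CRE motifs, at positions -75 and -44, a motif that 20.8% of promoters hold. The Inhba window held no CRE of either length and a TATA box at position -91, a motif found in 13.6% of promoters. The gene spans of Inhba, Fstl5 and Fstl4 begin before these listed starts, at bases 16004256, 76074275 and 52764489. Windows set on those outermost starts were not searched. The SMAD box, found in 0.213% of promoters, and the AP-1 motif, found in 7.81%, were in none of the 9 windows available for 8 of the genes. The short SMAD motif, found in 49.6% of promoters, was in windows of Fstl4, Fstl5, Acvr2a and Acvr2b, and an E-box, found in 7.15%, was in that of Acvr1b. These matches describe letters in a window and are not shown to be binding sites.

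Gene libraries held 16274937 to 36835780 counts, and the 2 libraries of batch d were the deepest. The first principal component (28.0% of the variance) followed the batches, with batch c at one end, so batch was a term of the fit and values within batches are given beside the results. That component also moved with BDNF, as the BDNF library had a lower score than its control in every set. Neuron markers were high in every library, their 5 genes summing to 3637 to 4365 CPM (counts scaled to a common library total, with TMM normalisation), and 6 astrocyte markers summed to 2126 to 2928 CPM. Microglial markers summed to 12.4 to 17.6 CPM. Csf1r (7.96 to 10.5 CPM) and Aif1 (2.74 to 7.48 CPM) had counts in every library, while Cx3cr1, P2ry12, C1qa and Tmem119 were at or near 0. The labels do not state that libraries of a group were separate cultures, and the p-values reflect the spread among these libraries alone, and that spread may be technical.

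**Figure D1:**
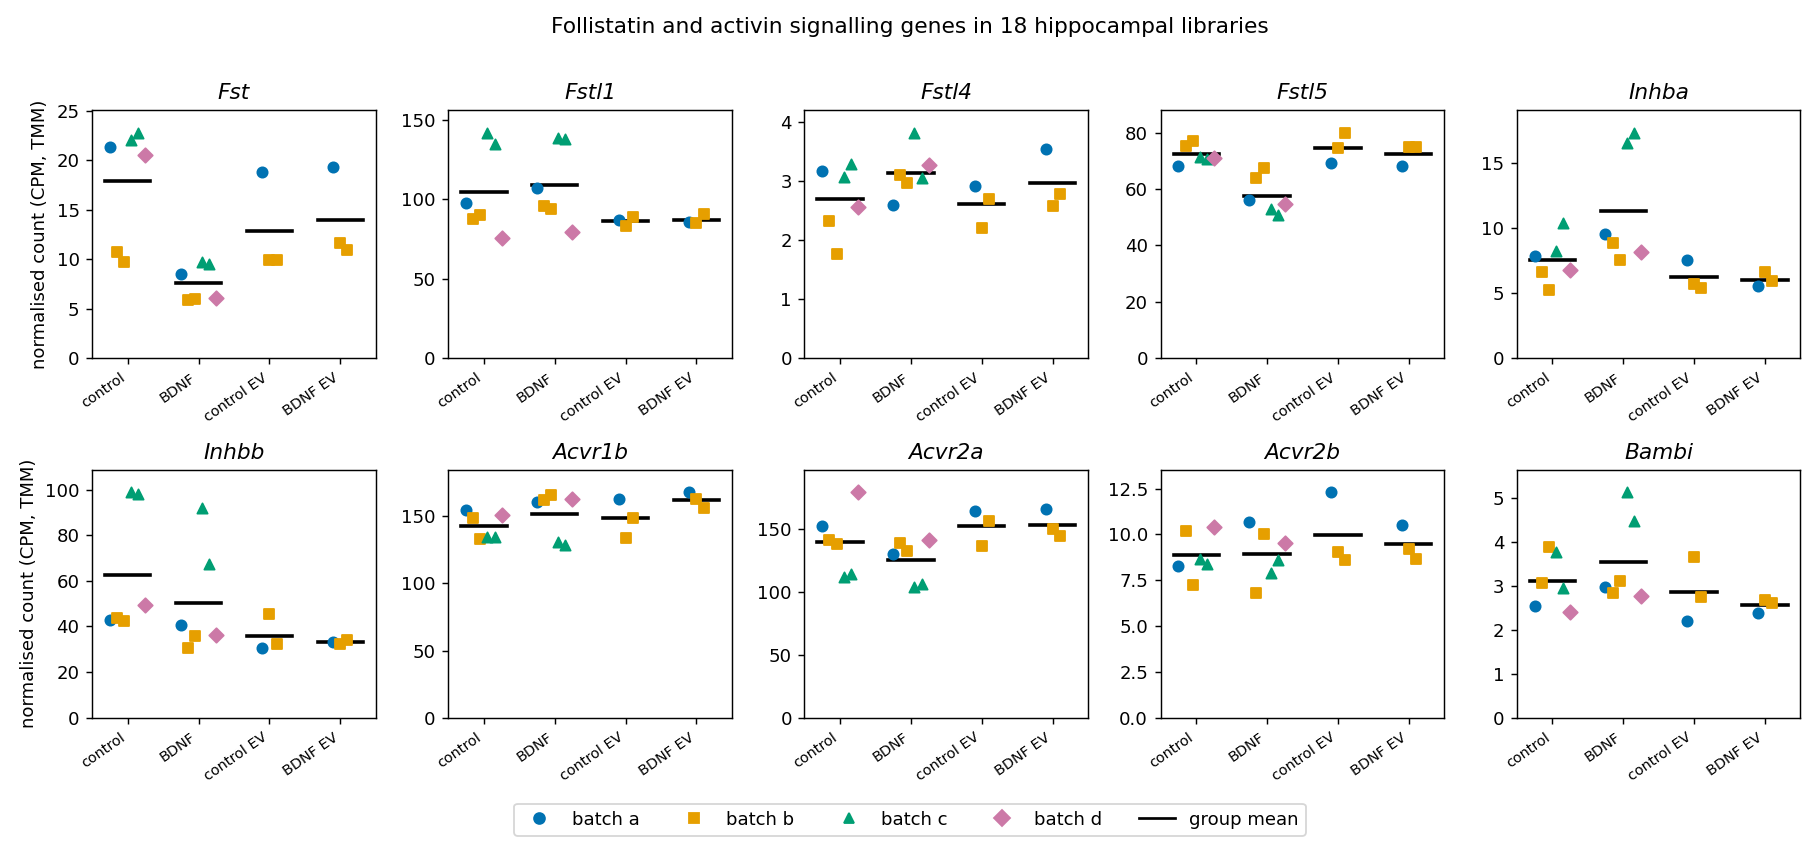
Normalised count (CPM with TMM scaling, linear axes from 0) of each of the 10 genes in the 18 hippocampal libraries, with colour and shape for the batch and a bar for the group mean. All 6 BDNF libraries lie below all 6 controls for Fst and Fstl5, and the EV libraries lie near the controls of their own batch for Fst.

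In cells given BDNF, the mRNA of the antagonist follistatin was at 0.43 of the control level and that of the activin subunit Inhba at 1.45 times it. The relative Fstl5 and the subunit Inhbb were at 0.80 of control and the receptor Acvr2a at 0.91. Fstl1, Fstl4, Acvr1b, Acvr2b and Bambi did not pass the threshold. At an adjusted p under 0.05 in the quasi-likelihood test of edgeR, with Benjamini-Hochberg adjustment over all genes tested, 5 of the 10 genes were called, 1 higher and 4 lower, where 13.8% of all genes tested were called (7.50% higher and 6.25% lower). Since the genes were picked on these libraries, nothing is read from that count. The median log2 fold change was 0.03 over the 10 genes and 0.00 over all genes tested.

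Fst, the gene of follistatin, lies at chr13:114452262-114458989 (GRCm38.p6) and was measured with 126 to 747 counts per library. In controls its level ranged from 9.73 to 22.8 CPM with a median of 21.0 (mean 17.9 ± 5.99 SD, n = 6), and after BDNF from 5.84 to 9.69 CPM with a median of 7.33 (mean 7.61 ± 1.84 SD, n = 6). The groups did not overlap, as was so for 3.01% of genes tested, although the 2 controls of batch b, at 10.7 and 9.73 CPM, stood close to the highest BDNF library. The other controls lay between 20.6 and 22.8 CPM. The long noncoding RNA gene Gm41074 overlaps Fst, and Gm41452 overlaps Fstl1. How far their reads were separated was not tested.

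The log2 fold change of Fst after BDNF was -1.22 ± 0.09 (SE), and it was lower in each of the 6 sets, by log2 differences of -1.74 to -0.70. Within batches the difference was -1.31 in batch a, -0.78 in batch b, -1.22 in batch c and -1.74 in batch d, so it was smallest in size where the controls were low. Genes called lower by more than 2-fold made up 17 of the 17609 tested (0.0965%). Since Fst was picked on these libraries, nothing is read from that share. In bulk samples such as these, fewer cells of a type and less RNA per cell cannot be told apart.

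Fstl5, a less studied relative with a follistatin domain, lies at chr3:76074275-76710010, and the window printed above for its first start holds 2 short CRE motifs. Its level was 68.1 to 77.1 CPM with a median of 71.3 in controls (mean 72.3 ± 3.30 SD, n = 6) and 50.7 to 67.3 CPM with a median of 55.4 after BDNF (mean 57.7 ± 6.54 SD, n = 6). The groups did not overlap, and among controls this gene varied least of the 10, with an SD of 4.57% of the mean. Its log2 fold change was -0.33 ± 0.04 (SE), lower in 6 of 6 sets, and within batches it lay between -0.45 in batch c and -0.22 in batch b.

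Fstl1, a secreted glycoprotein of the SPARC family, differed more between batches than between groups. Controls had 75.6 to 142 CPM with a median of 94.2, and BDNF libraries 79.3 to 139 CPM with a median of 102, so the groups overlapped fully. The highest values in each group were those of batch c (135 to 142 CPM) and the lowest those of batch d (75.6 and 79.3 CPM). The 6 astrocyte markers summed to 2126 and 2178 CPM in batch d and to 2790 to 2887 CPM in batch c, but to 2815 and 2866 CPM in batch a too, where Fstl1 stood at 97.9 and 107 CPM. Their part in the level of Fstl1 was not tested. After BDNF its log2 fold change was 0.06 (95% interval -0.02 to 0.14).

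Fstl4, a relative reported in mouse to bind the BDNF precursor, was sparse, with 29 to 105 counts per library. Its level was 1.76 to 3.29 CPM in controls (median 2.82) and 2.59 to 3.82 CPM after BDNF (median 3.08). The groups overlapped, and the gene was higher in 4 sets and lower in 2. Its log2 fold change was 0.22 with a 95% interval of -0.02 to 0.47. The long noncoding RNA gene Gm11186, which overlaps Fstl4, held 0 to 1 counts per library.

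Inhba encodes the beta A subunit, which forms activin A, and lies at chr13:16004256-16031609. Its level was 5.23 to 10.4 CPM with a median of 7.31 in controls (mean 7.51 ± 1.76 SD, n = 6) and 7.56 to 17.3 CPM with a median of 9.18 after BDNF (mean 11.3 ± 4.38 SD, n = 6). The pooled groups overlapped, and within every set the BDNF library was the higher one. BDNF libraries of batch c, at 16.5 and 17.3 CPM, stood above the other four, which had 7.56 to 9.52 CPM.

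The log2 fold change of Inhba was 0.53 ± 0.10 (SE), with set differences of 0.26 to 0.99. Within batches it was 0.28 in a, 0.47 in b, 0.86 in c and 0.26 in d. The call was lost when only batches a and b were used (log2 0.38) and when no batch term was used (log2 0.58). The pseudogene B230303A05Rik, which overlaps Inhba and cannot be separated from it by strand with this library kit, held 20 to 63 counts per library against 86 to 356 for Inhba, and its log2 fold change was -0.20 (edgeR adjusted p = 0.393).

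Inhbb encodes the beta B subunit of activin B and lies at chr1:119415463-119422248. Its level differed by batch: the controls of batch c had 98.8 and 97.9 CPM, and the other 4 controls had 42.5 to 49.4 CPM. After BDNF, batch c had 91.9 and 67.2 CPM and the other 4 libraries 30.6 to 40.7 CPM, so within the batches the BDNF library was the lower one in all 6 sets while the pooled groups overlapped. The log2 fold change was -0.32 ± 0.10 (SE), with set differences of -0.54 to -0.07. The call was lost in 15 of 21 alternative analyses, among them leaving out any 1 of the 6 controls, and the estimate ranged from -0.38 to -0.26 over all 21.

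Among the receptors, the type II receptor Acvr2a (chr2:48814109-48903264) had 112 to 179 CPM in controls (median 140) and 104 to 141 CPM after BDNF (median 131). The groups overlapped, with batch c lowest and batch d highest in both, and the gene was lower in 6 of 6 sets by log2 differences of -0.35 to -0.02. The log2 fold change was -0.14 ± 0.04 (SE), and the call was kept in 11 of 21 alternatives. Acvr2a shares its place in the genome with Orc4, a subunit of the origin recognition complex. Orc4 held 926 to 2415 counts and had a log2 fold change of -0.22 (edgeR adjusted p = 0.00118). Here too the overlap cannot be separated by strand with this library kit, and how far reads of the 2 genes were separated was not tested.

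The type I receptor Acvr1b (chr15:101174072-101213684) had 133 to 155 CPM in controls and 129 to 166 CPM after BDNF, with a log2 fold change of 0.09 (95% interval 0.00 to 0.18). The second type II receptor, Acvr2b (chr9:119401583-119442148), had 7.24 to 10.4 CPM in controls and 6.81 to 10.7 CPM after BDNF, and the gene was higher in 3 sets and lower in the other three. Its log2 fold change of 0.00 had a 95% interval of -0.20 to 0.20. The decoy receptor Bambi (chromosome 18) was sparse, at 39 to 92 counts, with 2.40 to 3.89 CPM in controls and 2.77 to 5.13 CPM after BDNF. The 2 highest values of Bambi were BDNF libraries of batch c, and the log2 fold change was 0.18 (95% interval -0.07 to 0.44).

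**Figure D2:**
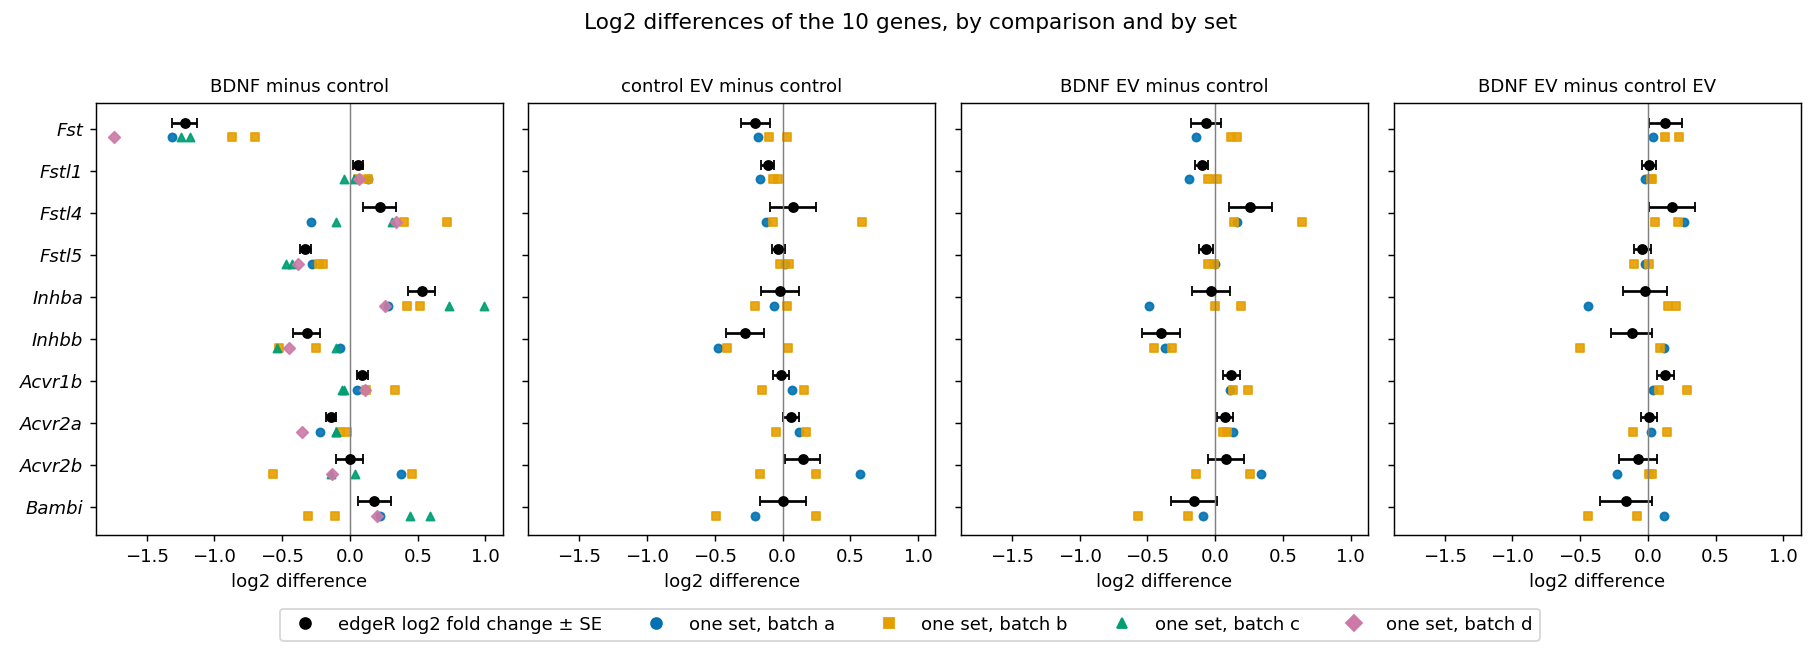
Log2 differences of the 10 genes in 4 comparisons (x axis, log2 scale), with the edgeR log2 fold change and its SE in black and the difference within each set coloured by batch. After BDNF all 6 sets lie below 0 for Fst, Fstl5, Inhbb and Acvr2a and above 0 for Inhba, and in the 3 comparisons with EV libraries the set differences of Fst lie between -0.18 and 0.23.

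Fst, Fstl5, Inhba, Inhbb and Acvr2a kept 1 direction in all 6 sets, as 14.4% of all genes tested did. Because each set holds 1 control and 1 BDNF library of the same batch, the balance of ligand to antagonist transcripts can be followed within a library, where depth cancels. Transcript lengths were not used, so the size of the ratio does not compare molecules of the 2 genes, and only its course over libraries is described. Controls held 32.8 to 61.5 Inhba counts per 100 Fst counts (mean 44.6 ± 11.2 SD, n = 6), and BDNF libraries held 111 to 182 (mean 146 ± 26.9 SD, n = 6). The groups did not overlap. Because both genes were picked on these libraries, the ratios to Fst restate their differences, and nothing further is read from that separation. How often other pairs of genes separate in this way was not tested.

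By set, the ratio of Inhba to Fst was 3.03, 2.47, 2.35, 4.55, 3.99 and 4.06 times higher after BDNF in sets 1 to 6. For Inhbb the ratio was 200 to 447 counts per 100 Fst counts in controls and 477 to 948 after BDNF, while Inhbb itself was lower, though by less than Fst. The factor for Inhbb ranged from 1.28 in set 2 to 2.47 in set 6. With control EVs libraries held 50.4 ± 9.17 Inhba counts per 100 Fst counts (SD, n = 3, highest 57.2), and with BDNF EVs they held 28.7, 56.5 and 54.8. All 6 lay below the lowest BDNF library, and 5 of them lay within the range of the controls, BDNF EV 1 being lower.

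**Figure D3:**
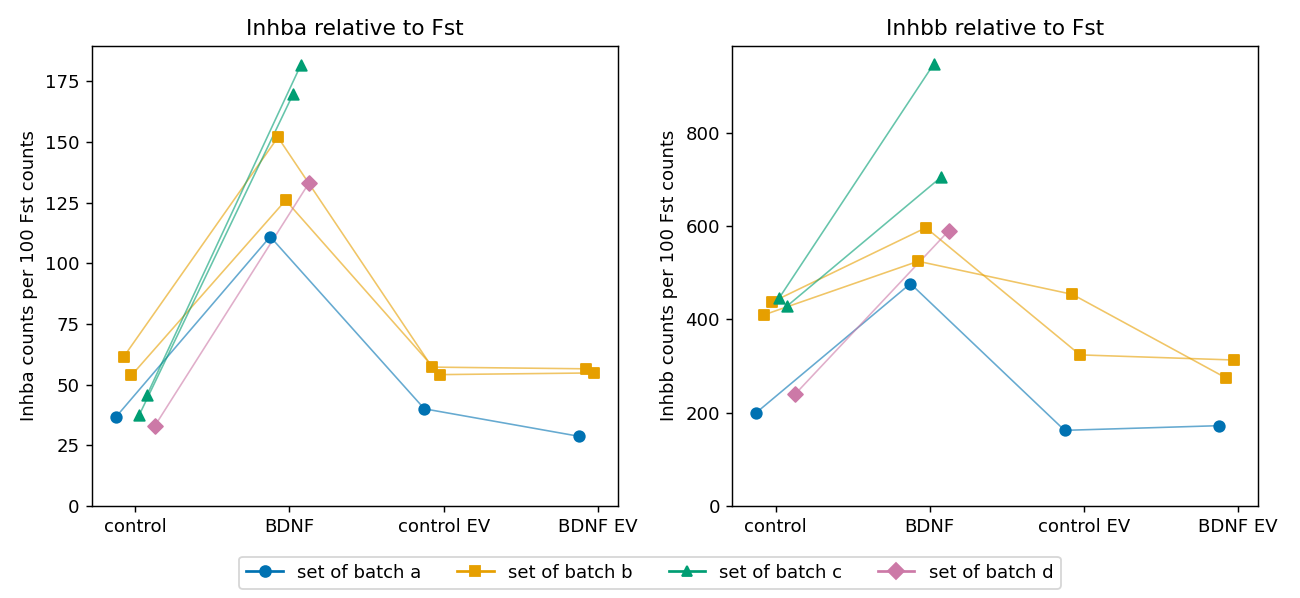
Counts of Inhba (left) and of Inhbb (right) per 100 counts of Fst in each hippocampal library (linear axes from 0), with lines joining libraries of a set and colour for the batch. In each of the 6 sets the BDNF library lies above its control, and in sets 1 to 3 the EV libraries lie below the BDNF library.

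The next question was whether vesicles from BDNF-treated donors altered these genes in recipient neurons as BDNF itself did. No gene of the 10 was called in control EV against control, in BDNF EV against control or in BDNF EV against control EV. Few genes were called at all in these comparisons, 5 (0.0284%), 4 (0.0227%) and 0 (0%) of those tested. At an unadjusted p under 0.05 there were 1082, 1277 and 1475 genes, and DESeq2 called 6, 32 and 0. The median log2 fold changes of the 10 genes were -0.02, -0.05 and 0.00. Both comparisons with control share their control libraries with BDNF against control, so the values are set side by side.

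Fst had 18.8, 9.98 and 9.90 CPM in control EV libraries 1 to 3 and 19.3, 11.7 and 10.9 CPM in BDNF EV libraries 1 to 3. The controls of the same sets had 21.4, 10.7 and 9.73 CPM, and the BDNF libraries 8.55, 5.84 and 5.98 CPM. In each set both EV libraries thus stood near the control and above the BDNF library, and set 1 was higher than sets 2 and 3 in all 4 groups. The fold of Fst was 0.95 (95% interval 0.81 to 1.12, edgeR adjusted p = 0.944) for BDNF EV against control and 1.09 (95% interval 0.92 to 1.30, edgeR adjusted p = 0.794) for BDNF EV against control EV. For control EV against control it was 0.87 (95% interval 0.74 to 1.03, edgeR adjusted p = 0.865).

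Fstl5 had 69.1, 74.4 and 79.9 CPM with control EVs and 68, 74.7 and 74.7 CPM with BDNF EVs, against 68.1, 75.3 and 77.1 CPM in the controls of those sets. The fold for BDNF EV against control was 0.95 (95% interval 0.88 to 1.03, edgeR adjusted p = 0.853). Inhba had 7.54, 5.71 and 5.36 CPM with control EVs and 5.55, 6.60 and 5.96 CPM with BDNF EVs, against 7.85, 6.58 and 5.23 CPM in the controls of those sets. Its fold for BDNF EV against control was 0.98 (95% interval 0.80 to 1.20, edgeR adjusted p = 0.983). BDNF EV 1 was the lowest relative to its set's control, and the other two sets did not share that difference.

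Inhbb was the gene of the 10 whose estimates lay farthest from 0 in both comparisons of EV groups with controls. It had 30.6, 45.3 and 32.1 CPM with control EVs and 33.2, 32.1 and 34.1 CPM with BDNF EVs, and the controls of those sets had 42.8, 43.9 and 42.5 CPM. All 3 BDNF EV libraries and 2 of the 3 control EV libraries were below their controls. Its log2 fold change was -0.40 ± 0.14 (SE) for BDNF EV against control (edgeR adjusted p = 0.516), -0.28 ± 0.14 for control EV against control (edgeR adjusted p = 0.818) and -0.12 ± 0.15 between the EV groups (edgeR adjusted p = 0.858). BDNF EV libraries did not overlap with controls, as was so for 3.82% of genes tested. In the fit with the BDNF EV and control libraries alone, Inhbb passed the threshold (edgeR adjusted p = 0.00177), and that fit called 235 genes in place of 4.

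Acvr1b also did not overlap between BDNF EV (168, 163 and 156 CPM) and controls (133 to 155 CPM), a difference of 0.12 ± 0.06 on the log2 scale (SE, edgeR adjusted p = 0.689). Acvr2a had 164, 136 and 156 CPM with control EVs and 166, 150 and 144 CPM with BDNF EVs, against 152, 141 and 138 CPM in the controls of those sets. Its fold for BDNF EV against control was 1.05 (95% interval 0.97 to 1.14, edgeR adjusted p = 0.853). Fstl1, Fstl4, Acvr2b and Bambi had log2 fold changes between -0.16 and 0.26 for BDNF EV against control, with none past the threshold. The sparse genes Fstl4 and Bambi had the widest intervals, from -0.07 to 0.59 and from -0.52 to 0.19.

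Set directly against BDNF-treated cells, BDNF EV cells were higher in Fst by 1.15 ± 0.12 (log2, SE, 2.22-fold), in Fstl5 by 0.26 ± 0.05 and in Acvr2a by 0.22 ± 0.06. They were lower in Inhba and in Fstl1, with log2 fold changes of -0.57 ± 0.14 and -0.16 ± 0.05. These 5 of the 10 genes were called by edgeR, 3 higher and 2 lower, where 8.36% of genes tested were called (3.36% higher and 5.00% lower), and all 5 went the same way in each of the 3 sets. This comparison shares its BDNF libraries with BDNF against control, and it is given as values beside it and not as separate evidence. Without BDNF EV 1 the call of Inhba was lost (log2 -0.40), as were those of Fstl1 and Acvr2a. With no batch term the calls of Fst (log2 0.88), Inhba, Fstl1 and Acvr2a were lost. Of 16 alternatives, the call was kept in 16 for Fstl5, 15 for Fst, 14 for Inhba, 12 for Acvr2a and 6 for Fstl1. Bambi, at 2.39 to 2.67 CPM with BDNF EVs and 2.77 to 5.13 CPM after BDNF, did not overlap but was not called (log2 -0.35 ± 0.17, SE). Non-overlap in this comparison was seen for 12.9% of genes tested.

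The wider pathway was described with 63 further genes listed by role, 56 of which had enough counts to be tested. The list was written with earlier results of these data known. After BDNF 10 of the 56 were called (17.9%, against 13.8% of all genes tested), 5 higher and 5 lower, with a median log2 fold change of -0.02. Calls lay among ligands (3 of 10), intracellular proteins (2 of 17) and other proteins with a follistatin domain (4 of 9). None of the 8 other antagonists and co-receptors and none of the 7 other receptors was called.

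Among the other antagonists, Fstl3, the closest relative of follistatin in binding activin, differed by 0.00 ± 0.14 on the log2 scale (SE, edgeR adjusted p = 0.990). Noggin (Nog) had -0.05 ± 0.10 and chordin (Chrd) -0.02 ± 0.07, both antagonists of BMPs. The BMP antagonist Grem1 had 0.39 ± 0.13 (SE, edgeR adjusted p = 0.0515), just outside the threshold. The inhibin alpha subunit Inha, which joins a beta subunit to form inhibin, had 0.00 ± 0.06 (edgeR adjusted p = 0.987).

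Of the ligands, Tgfb3 rose from 7.57 ± 1.18 to 10.2 ± 1.52 CPM (SD, n = 6 each), or by 0.43 ± 0.08 on the log2 scale (SE, edgeR adjusted p = 8.62e-04). Bmp7 rose by 0.38 ± 0.08 (edgeR adjusted p = 0.00318). With only batches a and b both calls were lost, at 0.23 for Tgfb3 and 0.21 for Bmp7 (edgeR adjusted p = 0.252 and 0.295). Bmp4 fell by 0.84 ± 0.21 on the log2 scale (edgeR adjusted p = 0.00762) from a level of only 0.346 to 1.41 CPM in controls. It was lower in 5 of the 6 sets and higher in set 4, where the control had 0.346 and the BDNF library 0.399 CPM. Its call was lost with no batch term (log2 -0.82). TGF-beta ligands Tgfb1 and Tgfb2 did not pass the threshold.

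Inside the cell, Magi2, a scaffold known to bind activin type II receptors, fell by 0.15 ± 0.03 on the log2 scale (edgeR adjusted p = 0.00446), a call lost without batch c (log2 -0.13) and with only batches a and b (log2 -0.09). Ski, a co-repressor of SMAD proteins, fell by 0.11 ± 0.04 (edgeR adjusted p = 0.0313, and 0.0529 with the replicate block), and its call was lost in 6 of 9 alternatives. The SMADs that carry the activin signal did not pass, Smad2 with -0.02 ± 0.04 and Smad3 with 0.22 ± 0.09 (edgeR adjusted p = 0.106). The SMAD targets Id1 to Id4, known mainly as targets of BMP signalling, had log2 fold changes of -0.12 to 0.14 and did not pass.

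Proteins that share only the follistatin domain went both ways. The proteoglycan Spock1 rose by 0.35 ± 0.05 (edgeR adjusted p = 2.04e-05) and Spock2 by 0.12 ± 0.04 (edgeR adjusted p = 0.0326). The call of Spock2 was lost with the replicate block, no batch term or only the 2 groups compared. It was also lost with only batches a and b and without batch d. The membrane protein Tmeff2 fell by 0.32 ± 0.05 (edgeR adjusted p = 2.98e-05), from 88.8 ± 7.78 to 71.3 ± 1.30 CPM (SD, n = 6 each). Spock3 fell by 0.20 ± 0.06 (edgeR adjusted p = 0.0363), but its call was lost in 5 of 9 alternatives, and with only batches a and b its log2 fold change was -0.10.

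**Figure D4:**
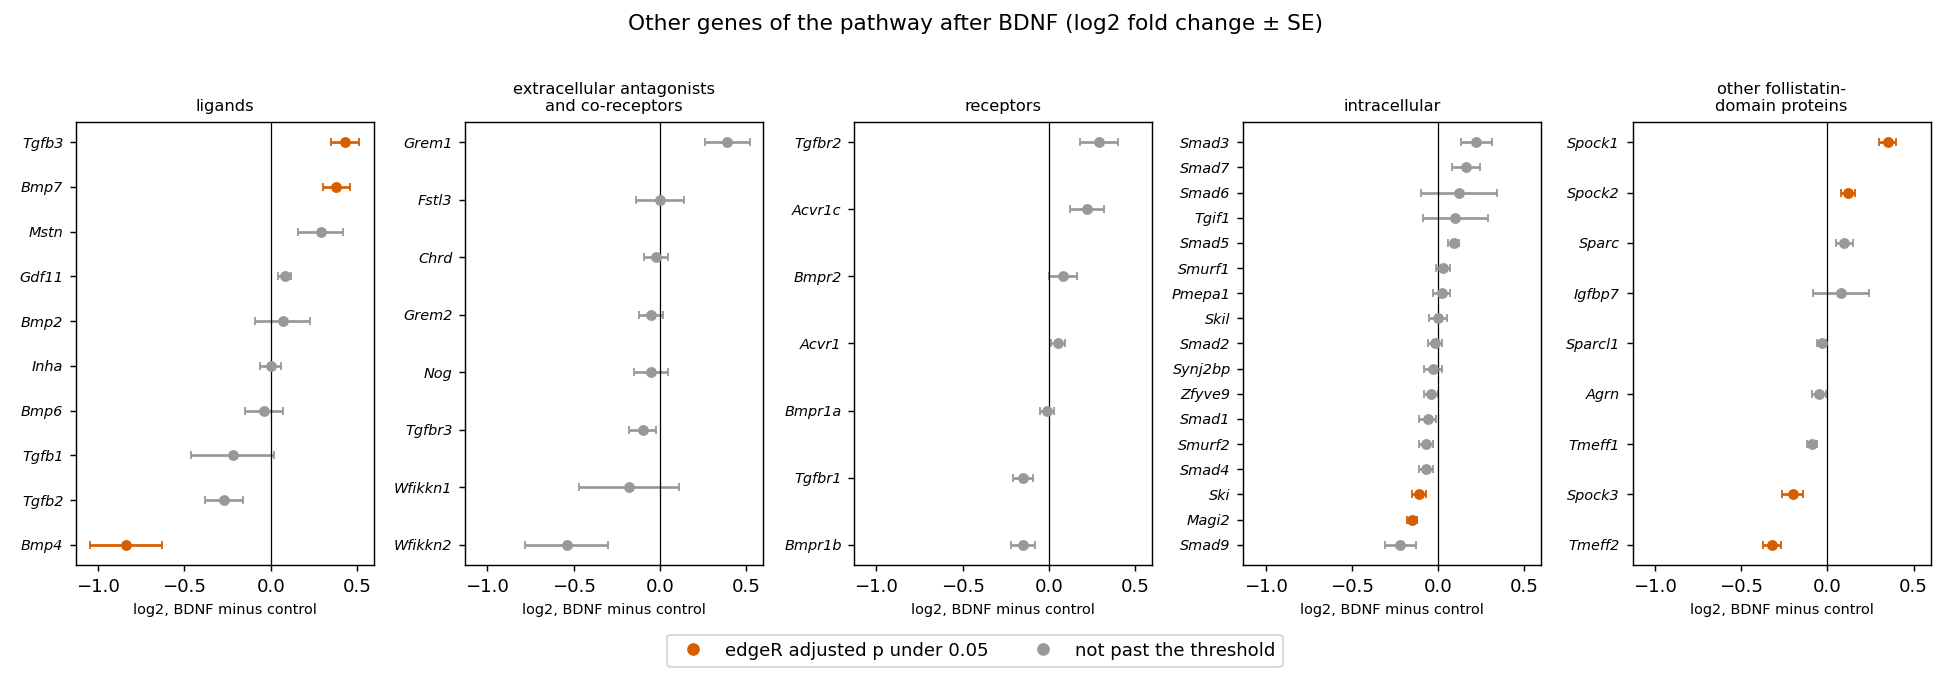
Log2 fold change after BDNF with its SE (x axis, log2 scale) for tested pathway genes outside the 10, in panels by role and without the SMAD targets, with genes past the threshold in orange. Bmp4 lies farthest below 0, while the antagonist and receptor panels hold no gene past the threshold.

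In the EV comparisons no gene of the pathway list was called against control or between the EV groups. BDNF EV against BDNF called 8 of 56 (14.3%, where 8.36% of all genes were called), 2 higher and 6 lower. Smad3 fell by 0.56 ± 0.13 (edgeR adjusted p = 0.00733) and the inhibitory Smad7 by 0.40 ± 0.12 (edgeR adjusted p = 0.0348), a call lost in 3 alternatives. The type I receptor Tgfbr1 was higher by 0.32 ± 0.08 (edgeR adjusted p = 0.0137). Myostatin (Mstn), another ligand of the activin type II receptors that follistatin binds, fell by 0.71 ± 0.18 (edgeR adjusted p = 0.0145). With no batch term the calls of Tgfbr1 (log2 0.38) and Mstn (log2 -0.51) were lost.

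Markers of cell types moved with BDNF beside these genes. All 5 inhibitory neuron markers were called higher after BDNF, and their sum was 483 to 799 CPM in controls and 745 to 1181 CPM after BDNF. By group mean, Sst went from 224 to 385 CPM and Npy from 7.60 to 58.7 CPM. Gad1, Gad2 and Slc32a1 had smaller log2 fold changes of 0.29, 0.37 and 0.32. Of 5 neuron markers 2 were called higher and 1 lower, and of 5 excitatory neuron markers 1 higher and 2 lower. Among 4 hippocampal markers 1 was called lower. Of 5 markers of progenitors and dividing cells 3 were called higher, with sums of 296 to 359 and 339 to 497 CPM. Fibroblast and vascular markers, of which 1 was called higher and 1 lower, summed to 100 to 127 and 72.6 to 111 CPM. Astrocyte markers summed to 2178 to 2901 and 2126 to 2887 CPM, with 1 called higher and 2 lower of 6. Of 7 oligodendrocyte lineage markers 3 were called higher and 1 lower, with sums of 847 to 1014 and 945 to 1196 CPM. No marker was called in control EV or BDNF EV against control. The part of these shifts in the levels of Fst, Inhba and the other genes was not tested.

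Across the 18 libraries, with batch means removed, the genes closest in pattern to Fst among 12242 compared were Ssbp2, Meaf6 and Ada, each with a Pearson correlation of log2 CPM of 0.97. Those close to Inhba included Tpm1 (0.91) and Slfn9 (0.90), and those closest to Fstl5 were Ctnna2 (0.97), Lpl (0.96) and Gng7 (0.96). Ssbp2, Ada and Lpl were lower after BDNF, with log2 fold changes of -0.49 ± 0.04, -0.87 ± 0.08 and -0.52 ± 0.05 (SE), and Slfn9 was higher with 0.49 ± 0.12. Among the 10 genes themselves, Fst went with Fstl5 (0.95) and Acvr2a (0.81) and against Inhba (-0.77). Fstl4 went with Acvr1b (0.75) and Fstl1 against Acvr2a (-0.71). These correlations are descriptions over libraries that share treatments, and the BDNF contrast contributes to all of them.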

How the data were processed

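RNA of 18 hippocampal libraries was analysed, and 24 small RNA libraries of the series were not used. The values are raw counts per Ensembl gene as deposited by the authors, with no normalisation. Per the labels' protocols, libraries were made from 500 ng of RNA with the TruSeq RNA kit v2 and sequenced as single reads of 50 bp. Per the submitters' processing notes, the build was mm10 and the tools named are DESeq2, cutadapt 1.8.1 and CASAVA 1.8 and 1.8.2. Aligner, counter and annotation: not given in the sources used here.

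Symbols were matched for 55144 of 55471 IDs, and IDs without one held 0.0247% of the counts. Groups, sets and batches came from the labels. The test was edgeR 4.0.16 (R 4.3.3), robust quasi-likelihood, on all 18 libraries with batch as a covariate, TMM normalisation, edgeR's filter at a minimum count of 10 and Benjamini-Hochberg adjustment over all 17609 genes tested, at 0.05. It was tested on simulated data first. Alternatives were DESeq2 1.42.0, other size factors, no filter, no batch term, a set block, fewer libraries, and each library left out in turn. Subsets of batches for BDNF against control were chosen after seeing the data.

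Same-numbered libraries deviated together from their group means (correlations of 0.185 to 0.577 over all comparisons). The set numbers come from the library labels, and same-numbered libraries also share a batch. These correlations therefore cannot tell pairing by set from batch. No 2 libraries of a group agreed within sampling noise. All 10 genes are named, plus up to 3 called pathway genes per role and comparison with the largest change and the 3 genes most alike to each of 3 members. Other pathway genes were named after their values were seen, and some genes that this rule takes are not reported here. The members and lists were chosen with earlier results of these data known. Coordinates and promoters are those of RefSeq, GRCm38.p6, counted from 1.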

Additional observations from a re-analysis of the deposited data

How the results depend on the processing

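Fst and Fstl5 passed the threshold for BDNF against control in all 21 alternatives, with log2 fold changes of -1.28 to -1.0 and -0.36 to -0.23. Inhba passed in 19 of 21 and lost the call with no batch term and with only batches a and b. The alternatives reuse libraries on which these genes were picked, so passing in them is not separate evidence for a difference. No named result changed direction while past the threshold. The count of the 10 genes called for BDNF against control, 5, became 2 with no batch term, 2 with only batches a and b, 3 without batch c, 3 without batch d and 3 to 4 when 1 library was left out. For BDNF EV against control the 0 became 1 (Inhbb) with only the 2 groups compared. For BDNF EV against BDNF the 5 became 1 with no batch term and 2 to 5 with 1 library left out. Of the pathway list, the 10 called for BDNF against control became 5 with no batch term and 6 with only batches a and b, and the 8 for BDNF EV against BDNF became 15 with no filter and 3 with no batch term. The 0 for control EV against control became 1 with no filter and 1 with only batches a and b. The 0 for BDNF EV against control became 2 with no filter, 4 with only the 2 groups compared and 1 with only batches a and b, and the 0 between the EV groups became 2 with no filter. The cause of these shifts was not tested.

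Over all genes tested, the 2422 called for BDNF against control became 843 with no batch term, 1448 without batch c and 1067 with only batches a and b. The 1472 for BDNF EV against BDNF became 870 with no batch term, and 951, 704 and 925 without BDNF EV 1, 2 and 3. With no filter, control EV against control called 38 genes, BDNF EV against control 156 and the EV groups 167, and with only batches a and b BDNF EV against control called 12.

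With the replicate block, which pairs libraries by set number, the 10 genes gave 5 calls for BDNF against control, 0 in each of the 3 comparisons of EV libraries with controls or each other and 4 for BDNF EV against BDNF, where Fstl1 was lost (edgeR adjusted p = 0.0637). The pathway list gave 8, 0, 0, 0 and 8, with Ski and Spock2 lost in the first comparison and, in the last, Id1 lost (edgeR adjusted p = 0.0502) and Bmp6 gained. Where a group has few libraries, leaving 1 out rests on the spread of the others. Depth limits Fstl4 and Bambi, with 29 to 105 and 39 to 92 counts per library.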
